A study of Mus musculus with 24 samples.

Results

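The levels of 8 transcription factor genes, Hnf4a, Pax2, Pax8, Lhx1, Emx2, Tfap2b, Esrrb and Esrrg, were followed in the kidneys of Pkd1-mutant mice. They were taken by gene symbol from a table of read counts that holds 54532 genes, and all 8 of 8 were found once and passed the filter on low expression. Each library came from the whole kidney of 1 mouse at 18 days of age, of the C57BL/6 strain by the labels and of its J substrain (C57BL/6J) by the methods, so that replicates were separate animals. In all 24 mice 1 copy of Pkd1 was RC, a variant with a cysteine in place of an arginine. In the control group RC/+ (n = 3) the partner allele was floxed but intact (RC/F, without Cre). In the cystic group RC/- (n = 5) the same floxed allele was removed in tubular epithelium by Cre recombinase under the Ksp (Cdh16) promoter, so loss of Pkd1 and the presence of Cre cannot be told apart. The other 4 groups carried an RC allele from which CRISPR/Cas9 editing had removed the miR-17 motif of the 3′ untranslated region (UTR). By the paper, their partner allele was also floxed, without Cre in the edited RC/+ groups and with Ksp-Cre in the edited RC/- groups. Loss of Pkd1 and the presence of Cre thus cannot be told apart within the edited lines either. RC/+ D18 (n = 3) and RC/- D18 (n = 5) descended from founder 3, and RC/+ D53 (n = 3) and RC/- D53 (n = 5) from founder 2, with 1 founder per edited line. The founder of the unedited RC/+ and RC/- mice is not given, so edit and founder cannot be told apart in comparisons with them. Both edited RC/- groups are labelled cystic by the submitters. The paper, however, reports that at 18 days the edit relieved cystic disease almost fully compared with RC/-, with kidney weight and blood urea nitrogen close to normal. Below, cystic genotype names the RC/- genotype, with or without the edit, and not the state of the kidney. D18 and D53 are names of edits and not ages.

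The nephron is built from cells that are told apart by combinations of transcription factors. Hnf4a is a nuclear receptor required for the maturation of the proximal tubule, whereas Pax2, Pax8, Lhx1 and Emx2 act in the nephric duct, the ureteric bud and the early nephron. Tfap2b takes part in formation of the distal tubule, and Esrrb and Esrrg are orphan nuclear receptors of the estrogen-related family, which regulate genes of mitochondrial oxidative metabolism. In polycystic kidney disease the tubules dilate into cysts lined by cells that have lost much of their mature character.

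The edit is shown by the sequence that it targets. The microRNA miR-17-5p (chr14:115043684-115043706, plus strand, RefSeq, GRCm38.p6) pairs through its seed, bases 2 to 8, given in capitals in the first line. The second line gives the matching stretch of the Pkd1 3′ UTR (chr17:24595722-24595748, plus strand, GRCm38), with the complement of the seed in capitals, at position 193 of a UTR of 969 bases.
mmu-miR-17-5p: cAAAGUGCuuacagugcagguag
Pkd1 3′ UTR site: tggggcttctGCACTTTaaaaaggctg
The same 7 letters, GCACTTT, occurred 0 times in the longest annotated 3′ UTR of each of the 8 factors, which were between 988 bases (Pax8) and 4229 bases (Tfap2b) long. Of 21018 genes with an annotated 3′ UTR, 11.8% held the 7 letters at least once. The absence of the letters says nothing of other kinds of site.

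The libraries held between 20379982 and 30837488 counted reads. Pkd1 itself lay between 38.4 and 71.4 CPM (the counts-per-million unit, on library totals) in all groups and passed the test in none of the comparisons (adjusted p from 0.173 to 1), and a count over the whole gene does not show either edit. Defining markers of kidney segments were present in every group, and 0 of the markers of tubule segments were at 0 in a whole group. The summed level of 6 skeletal muscle markers was 147 to 194 CPM in the 8 libraries of RC/- D18 replicates 20 to 22 and RC/- D53 replicates 23 to 27, against 5.27 to 9.36 CPM in the other 16. The 4 adrenal cortex markers summed to 1120 CPM in RC/- replicate 16 and to between 3.14 and 10 CPM elsewhere. The sum of 4 adipose tissue markers varied widely within groups, at 91.6 to 277 CPM in RC/+, 2.22 to 389 CPM in RC/- and 3.59 to 395 CPM in RC/- D18. Of these 4, 0 passed between RC/- and RC/+. Markers of other cell types also moved between RC/- and RC/+. All 5 macrophage markers were higher (178 to 192 CPM summed in RC/+, 326 to 552 CPM in RC/-), as were 3 of 5 fibroblast markers (983 to 1390 CPM and 2080 to 3290 CPM), while 3 of 4 podocyte markers were lower and 1 higher, and 3 of 5 intercalated cell markers and 2 of 4 endothelial markers were lower. Their part in the changes of the factors was not tested. Without RC/- replicate 16, 7 of the 8 factors still passed the test between RC/- and RC/+.

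In cystic RC/- kidneys the factors moved in opposite directions. Compared with RC/+, Pax2, Pax8 and Emx2 rose, while Hnf4a, Lhx1, Esrrb and Esrrg fell, and Tfap2b did not pass the test. Thus 7 of 8 passed at an adjusted p of 0.05 (limma-trend, Benjamini-Hochberg over all 22570 genes tested), 3 higher and 4 lower. Among all genes tested, 37.6% passed, 25.5% higher and 12.2% lower. The groups did not overlap for 5 of the 8, namely Hnf4a, Pax2, Pax8, Emx2 and Esrrg, and the ranges of 37.6% of all genes did not overlap. The median change of the factors was -0.39 on the log2 scale, beside 0.14 for all genes. That median of 0.14 fell to 0.01 when library sizes were scaled by TMM factors, and the calls then split into 3844 higher and 3896 lower in place of 5753 and 2744. The directions of the factors were the same under both scalings. Because these are whole kidneys, fewer cells of a type and less RNA per cell cannot be told apart.

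**Figure D1:**
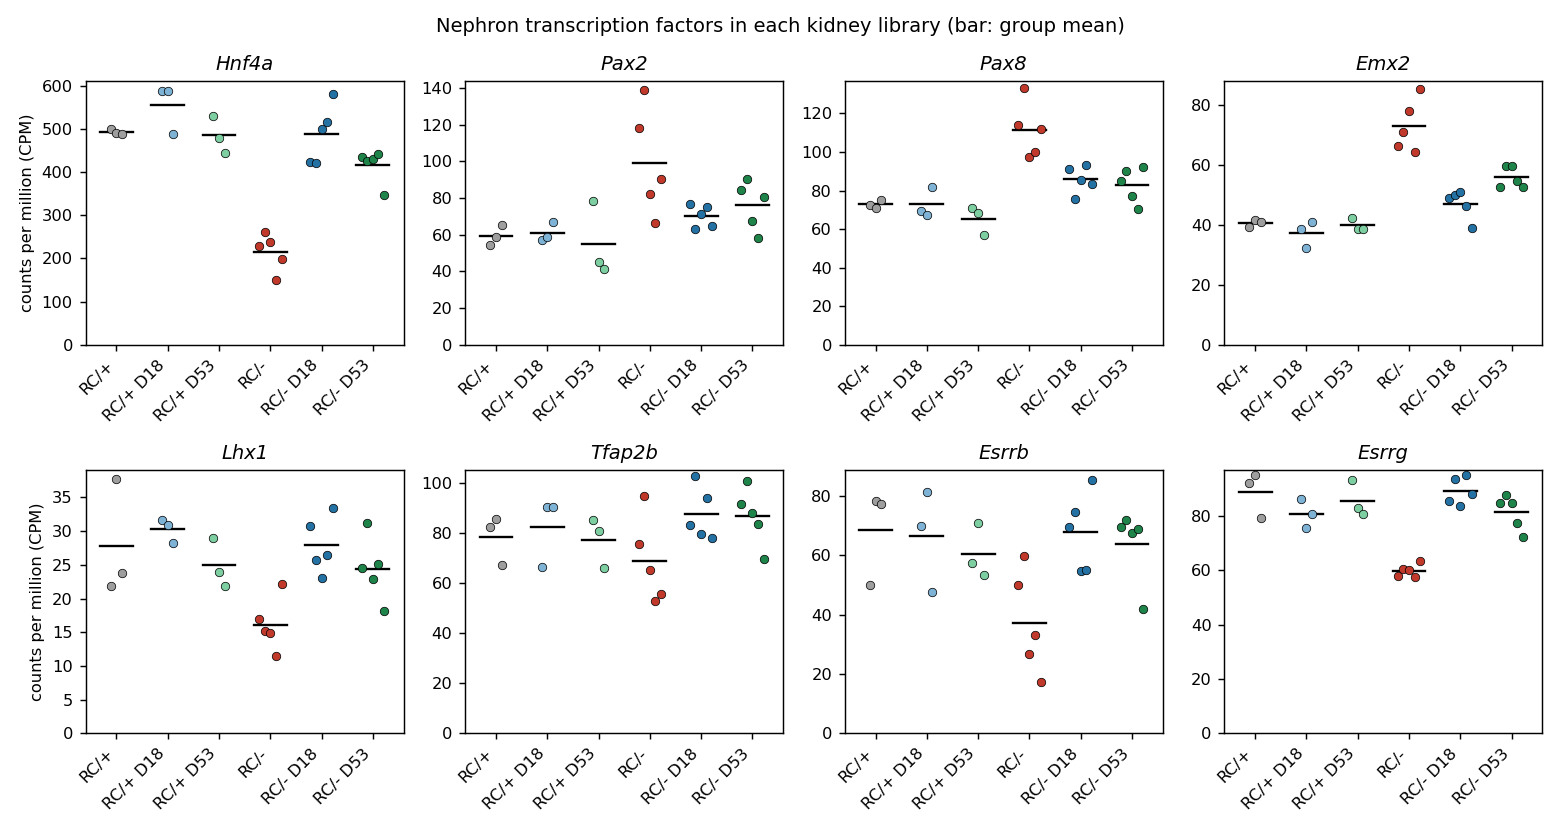
Level of each factor in every library, in CPM on a linear axis from 0, with 1 point per mouse and a bar at the group mean. RC/- points (red) lie below all RC/+ points for Hnf4a and Esrrg and above them for Pax2, Pax8 and Emx2.

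Pax2 and Pax8 are paired-box factors that specify the nephric lineage together, and Emx2 is a homeobox factor needed for growth of the ureteric bud. Pax2 (chromosome 19, 44756045 to 44837871, plus strand, GRCm38) measured 54.2, 58.6 and 65.4 CPM in the RC/+ libraries and 118, 139, 82.5, 66.5 and 90.7 CPM in the RC/- libraries. All RC/- libraries were above all RC/+ libraries, but the lowest of them, replicate 16, exceeded the highest control only slightly. The rise was 1.62-fold (log2 fold change 0.70, SE 0.195, adjusted p = 0.00618). Pax8 (chromosome 2, 24420560 to 24475599, minus strand) measured 72.6, 71 and 75.3 CPM in RC/+ and 114, 133, 97.3, 99.9 and 112 CPM in RC/-. The groups stood apart, with a rise of 1.52-fold (log2 fold change 0.60, SE 0.104, adjusted p = 5.96e-05). Emx2 (chromosome 19, 59458372 to 59465357, plus strand) measured 39.4, 41.8 and 40.9 CPM in RC/+ and 66.6, 71, 78.3, 64.4 and 85.5 CPM in RC/-. The RC/- libraries were all far above the controls, at a rise of 1.79-fold (log2 fold change 0.84, SE 0.0962, adjusted p = 2.47e-07). Markers of collecting duct principal cells moved with these genes, 6 of 8 of them higher, and their summed level went from 1170 to 1450 CPM in RC/+ to 2560 to 4930 CPM in RC/-. Their part in the rise of the 3 factors was not tested.

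Hnf4a (chromosome 2, 163506808 to 163572910, plus strand), the proximal tubule factor, fell the most of the 8 on the log2 scale. It measured 499, 491 and 488 CPM in the RC/+ libraries and 229, 262, 238, 149 and 198 CPM in the RC/- libraries. Every RC/- library was far below the controls, which differed from each other by little. The level was 2.33-fold lower (log2 fold change -1.22, SE 0.134, adjusted p = 1.21e-07). The lowest value came from replicate 16, the library with adrenal markers, and without it the log2 fold change was -1.10 (adjusted p = 5.54e-08). Proximal tubule markers fell alongside, 15 of 15, and their sum went from 16300 to 17000 CPM in RC/+ to 4010 to 7850 CPM in RC/-. Their part in the fall of Hnf4a was not tested.

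Lhx1 and Tfap2b, which pattern the forming tubule, did not separate the groups. Lhx1, a LIM homeodomain factor (chromosome 11, 84518284 to 84525535, minus strand), measured 21.9, 37.8 and 23.8 CPM in RC/+ and 17, 15.2, 14.9, 11.5 and 22.1 CPM in RC/-. RC/+ replicate 5 stood high, and RC/- replicate 17 reached into the control range. The fall nonetheless passed the test at 1.71-fold (log2 fold change -0.78, SE 0.186, adjusted p = 0.0018). Tfap2b, the AP-2 beta gene (chromosome 1, 19208914 to 19238576, plus strand), measured 82.6, 85.6 and 67.2 CPM in RC/+ and 75.6, 94.8, 65.3, 52.9 and 55.7 CPM in RC/-. The RC/- libraries lay on both sides of the controls, and the log2 difference was -0.21 (95% interval -0.54 to 0.11, adjusted p = 0.304), which leaves room for a fall of the size of the lower bound. Of 7 markers of the distal convoluted and connecting tubule 6 fell and 1 rose in the same comparison, and their sum went from 2870 to 2980 CPM in RC/+ to 635 to 1030 CPM in RC/-, and their part was not tested.

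Both estrogen-related receptors fell, with very different spread. Esrrb (chromosome 12, 86361117 to 86521628, plus strand) measured 49.9, 78.2 and 77.2 CPM in RC/+ and 50.2, 59.7, 26.7, 33.1 and 17.3 CPM in RC/-. The RC/- libraries ranged widely, and replicates 13 and 14 were above the lowest control. The fall was 1.97-fold (log2 fold change -0.98, SE 0.282, adjusted p = 0.00797). Esrrg (chromosome 1, 187608791 to 188214885, plus strand) measured 92.1, 94.8 and 79.2 CPM in RC/+ and 57.7, 60.3, 60.1, 57.3 and 63.2 CPM in RC/-. Its RC/- libraries were nearly level and all below the controls, at 1.48-fold lower (log2 fold change -0.57, SE 0.0753, adjusted p = 1.92e-06). Thick ascending limb markers, 4 of 6 lower and 1 higher, summed to 4550 to 5190 CPM in RC/+ and 1980 to 3730 CPM in RC/-, and their part was not tested.

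Levels of different genes were compared per length, as CPM divided by the exon length in kilobases (RPKM). In RC/+ kidneys Hnf4a led with 102 ± 1.17 RPKM (SD, n = 3). The next 6 genes lay close together, from Esrrg at 14.3 ± 1.34 RPKM to Pax2 at 11 ± 1.04 RPKM. Emx2, Tfap2b, Pax8 and Esrrb fell between them, and each differed from its neighbour by less than the larger of their SDs, while Lhx1 was lowest at 6.84 ± 2.13 RPKM. In RC/- kidneys Hnf4a was still first at 44.5 ± 8.99 RPKM (n = 5), followed by Emx2 at 24.4 ± 2.89 RPKM. Pax2 and Pax8 had the same mean of 18.4 RPKM, with SDs of 5.4 and 2.37. Tfap2b at 10.9 ± 2.68 and Esrrg at 9.62 ± 0.38 RPKM did not differ beyond their spread, and Esrrb (6.18 ± 2.86 RPKM) and Lhx1 (3.96 ± 0.952 RPKM) came last.

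Next, the edited RC/- D18 and RC/- D53 kidneys were compared with unedited RC/- kidneys. This comparison shares its 5 RC/- libraries with the one above, so opposite signs are not independent evidence. In RC/- D18, all 8 of 8 factors passed the test, 5 higher and 3 lower, where 41.2% of all genes did (14.3% higher, 26.9% lower). Hnf4a measured 424, 422, 501, 516 and 581 CPM in the RC/- D18 libraries, above every RC/- library, and the rise was 2.3-fold (log2 fold change 1.20, SE 0.116, adjusted p = 1.68e-08). Esrrg measured 85.3, 93.4, 83.4, 95 and 88 CPM, again above every RC/- library (log2 fold change 0.57, SE 0.0652, adjusted p = 1.74e-07). The other receptor of the family, Esrrb, was more spread. At 69.6, 74.6, 54.9, 55 and 85.5 CPM it overlapped with RC/- replicate 14, and it rose 1.96-fold (adjusted p = 0.00235). Lhx1 was at 30.7, 25.8, 23, 26.5 and 33.5 CPM, with its lowest library just above the highest of RC/-, and rose 1.75-fold (adjusted p = 0.000259). The 3 genes that were high in RC/- fell. Emx2 measured 49.2, 50.2, 51, 46.4 and 39 CPM, below every RC/- library (log2 fold change -0.63, SE 0.0833, adjusted p = 1.46e-06), and Pax8, at 91.4, 75.4, 85.7, 93.2 and 83.4 CPM, was lower by 1.29-fold (adjusted p = 0.00176) without overlap. In all, 5 of the 8 did not overlap between these groups, against 27.8% of all genes. Markers moved in the same comparison, with 15 of 15 proximal, 5 of 5 intercalated and 3 of 4 podocyte markers higher, 6 of 7 of the distal convoluted and connecting tubule and 4 of 6 of the thick ascending limb higher, and 7 of 8 principal cell, 5 of 5 macrophage and 3 of 5 fibroblast markers lower. The proximal sum was 13900 to 21100 CPM in RC/- D18 and the principal cell sum 1380 to 1790 CPM, and their part was not tested.

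The calls of Pax2 and Tfap2b in RC/- D18 were weak. Pax2 was lower by 1.37-fold (adjusted p = 0.0325), and the call held in 4 of 11 settings. Among others it was lost with TMM factors (adjusted p = 0.117), edgeR (0.0767) and DESeq2 (0.0597). The Pax2 call was also lost without any 1 of RC/- replicates 13 and 14 and RC/- D18 replicates 19 and 22. Tfap2b was higher by 1.3-fold (adjusted p = 0.0289), and its call held in 8 of 11 settings. It was lost without any 1 of RC/- replicates 15, 16 and 17 and RC/- D18 replicates 19 and 21. Without the 3 muscle-marker libraries of this group, replicates 20 to 22, neither passed (adjusted p = 0.157 and 0.0682). The other 6 factors passed in each of these settings.

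In RC/- D53, 7 of 8 factors passed against RC/-, 5 higher and 2 lower, where 30.2% of all genes did (11.3% higher, 18.9% lower). Hnf4a measured 435, 425, 431, 443 and 347 CPM, above every RC/- library (1.96-fold, log2 fold change 0.97, SE 0.116, adjusted p = 9.01e-07). Esrrg at 84.8, 87.5, 84.5, 77.3 and 72.1 CPM was also above every RC/- library (log2 fold change 0.44, SE 0.0652, adjusted p = 1.45e-05). Emx2 at 52.8, 59.9, 59.6, 54.9 and 52.6 CPM and Pax8 at 85.1, 90, 76.9, 70.2 and 92.4 CPM lay below every RC/- library. Their log2 fold changes were -0.38 (SE 0.0833, adjusted p = 0.00107) and -0.42 (SE 0.0898, adjusted p = 0.000801). Thus 4 of the 8 did not overlap, against 18.8% of all genes. Lhx1 was at 24.5, 31.2, 22.9, 25.2 and 18.2 CPM and rose with overlap, since replicate 27 lay within the range of RC/- (log2 fold change 0.61, adjusted p = 0.00543). Esrrb was at 69.5, 71.9, 67.5, 68.9 and 42.1 CPM, and again replicate 27 alone reached into RC/- (log2 fold change 0.88, adjusted p = 0.0075). Tfap2b passed narrowly (log2 fold change 0.36, adjusted p = 0.0478) and held in 3 of 10 fits that left out 1 library. Pax2 differed by -0.35 (95% interval -0.70 to -0.003, adjusted p = 0.124), and passed only without RC/- replicate 16 (adjusted p = 0.0284). All 5 RC/- D53 libraries were muscle-marker libraries, and with those 8 libraries as a covariate only Hnf4a (adjusted p = 0.037) and Esrrg (adjusted p = 0.0181) passed. In that fit the covariate rests on the split within RC/- D18 alone, and most calls were lost without a smaller change. The log2 fold changes with the covariate were 1.06 for Esrrb, -0.50 for Pax8, 0.65 for Lhx1 and 0.50 for Tfap2b. Each of these was at least as large as without it. Smaller changes than without it were -0.24 for Emx2 and 0.645 for Hnf4a, although Hnf4a still passed. Beside these changes, 15 of 15 proximal, 5 of 5 intercalated, 3 of 4 podocyte, 5 of 7 distal convoluted and connecting tubule and 4 of 6 thick ascending limb markers were higher in RC/- D53 than in RC/-, and 4 of 8 principal cell, 5 of 5 macrophage and 2 of 5 fibroblast markers were lower. The proximal sum was 11200 to 14200 CPM in RC/- D53, and the part of these markers was not tested.

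The 3 comparisons of cystic with control genotype, within the unedited mice and within each edited line, share no library. In the D18 line 0 of 8 factors passed the test (limma-trend, adjusted p from 0.204 to 0.989), where 0.266% of all genes did, and edgeR and DESeq2 also gave 0. The ranges of 0 of the 8 stood apart, against 5.76% of all genes. Emx2 was at 38.6, 32.5 and 41 CPM in RC/+ D18, and only RC/- D18 replicate 22 was within that range. Its log2 difference of 0.33 (95% interval 0.14 to 0.53) was the largest of the 8 (adjusted p = 0.204). Hnf4a differed by -0.19 (95% interval -0.47 to 0.09), which does not reach the -1.22 seen between RC/- and RC/+. It was at 501, 516 and 581 CPM in the muscle-marker libraries of RC/- D18 and at 424 and 422 CPM in replicates 18 and 19. Over the 11 settings tried its difference reached -0.387 at the lowest and passed in none. Of the other factors, Pax8 (0.23), Pax2 (0.20), Esrrg (0.14), Tfap2b (0.10) and Esrrb (0.05) were on the higher side and Lhx1 (-0.13) on the lower, none past the test. Of the kidney cell markers 1 passed in this line, a principal cell marker that was higher.

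In the D53 line 1 of 8 passed, where 2.6% of all genes did. Emx2 measured 42.5, 38.8 and 38.8 CPM in RC/+ D53 and was higher in all 5 RC/- D53 libraries by 1.4-fold (log2 fold change 0.48, SE 0.0962, adjusted p = 0.00422). The call held in all 10 settings tried and in all 8 fits that left out 1 library. Pax8 was next (log2 difference 0.34, adjusted p = 0.0855), and passed without RC/- D53 replicate 26 (adjusted p = 0.0346). Pax2 differed by 0.51 (adjusted p = 0.207), and passed without RC/+ D53 replicate 10 (adjusted p = 0.0307), a control at 78.3 CPM where the other two were at 45.4 and 41.2 CPM. Hnf4a at 531, 480 and 444 CPM in RC/+ D53 was above every RC/- D53 library by a small margin, but the difference of -0.22 did not pass (95% interval -0.50 to 0.05, adjusted p = 0.517). Thus 2 of 8 did not overlap, against 11.6% of all genes. With the muscle-marker libraries as a covariate the Hnf4a difference was -0.552, and it passed in none of the 10 settings. Collecting duct principal cell markers moved in the same comparison, 4 of 8 higher, from 1020 to 1200 CPM to 1810 to 3050 CPM. Also higher were 4 of 5 macrophage and 6 of 6 skeletal muscle markers. Of 15 proximal markers 0 passed, but 6 lay lower without overlap, and their median log2 difference was -0.34, beside 0.04 for all genes. The part of these markers in the differences of Emx2 and Hnf4a was not tested. The remaining factors of this line did not pass, with log2 differences of 0.16 for Tfap2b, 0.06 for Esrrb, -0.04 for Lhx1 and -0.07 for Esrrg.

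**Figure D2:**
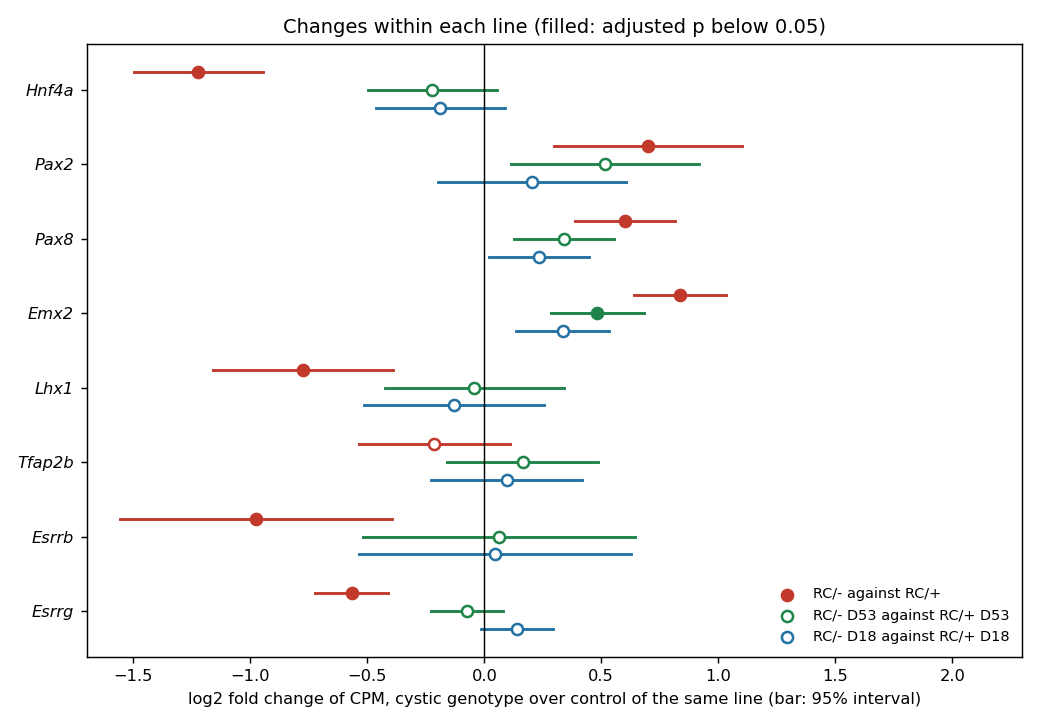
Log2 fold change of each factor between the cystic and the control genotype, within the unedited mice (founder not given) or within an edited line, with 95% intervals. Filled points passed the test, which were 7 for RC/- against RC/+ (red), 1 for RC/- D53 against RC/+ D53 (green, Emx2) and 0 for RC/- D18 against RC/+ D18 (blue).

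The difference between an edited line and the unedited mice was tested as an interaction, the change in an edited line minus the change between RC/- and RC/+. Edit and founder cannot be told apart in it. For D18 this passed for Hnf4a (1.03 on the log2 scale, adjusted p = 0.000512), Esrrg (0.71, adjusted p = 7.33e-05) and Emx2 (-0.50, adjusted p = 0.0122), 3 of 8 where 17.1% of all genes passed. The call for Emx2 was lost without RC/- D18 replicates 20 to 22 (adjusted p = 0.0673) and without RC/+ D18 replicate 9 (adjusted p = 0.0527). With the muscle-marker libraries as a covariate it was lost too (-0.42, adjusted p = 0.084). For D53 it passed for Hnf4a (1, adjusted p = 0.00146) and Esrrg (0.49, adjusted p = 0.00388), 2 of 8 where 11.3% of all genes passed. Both D53 calls were lost with the muscle-marker libraries as a covariate, where the difference was 0.67 for Hnf4a (adjusted p = 0.145) and 0.50 for Esrrg (adjusted p = 0.0714), the latter no smaller than without it. The differences of Esrrb were as large as those of Hnf4a but less precise, at 1.02 in D18 (95% interval 0.20 to 1.85, adjusted p = 0.0819) and 1.04 in D53 (0.21 to 1.86, adjusted p = 0.096). Lhx1 was at 0.65 in D18 (adjusted p = 0.096) and 0.73 in D53 (adjusted p = 0.0729), and Emx2 in D53 at -0.35 (adjusted p = 0.0967). Tfap2b (0.31 and 0.38), Pax2 (-0.49 and -0.18) and Pax8 (-0.36 and -0.26) did not pass in D18 or D53 either (adjusted p from 0.0915 to 0.735), so for these the change in an edited line was not shown to differ from that in RC/-.

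Between the edited RC/- groups, RC/- D53 against RC/- D18, 0 of 8 passed, where 0.266% of all genes did. Emx2 was higher in every RC/- D53 library than in every RC/- D18 library, but the difference of 0.25 did not pass (95% interval 0.08 to 0.42, adjusted p = 0.223). The ranges of 2.74% of all genes did not overlap here. The remaining differences were 0.11 for Pax2, -0.02 for Tfap2b, -0.05 for Pax8, -0.09 for Esrrb, -0.13 for Esrrg, -0.20 for Lhx1 and -0.23 for Hnf4a. Between RC/+ D18 and RC/+, 0 of 8 passed (0.00443% of all genes, although 1013 had an unadjusted p under 0.05, and edgeR called 2 genes and DESeq2 5), and between RC/+ D53 and RC/+ also 0 of 8 (0% of all genes, although 525 had an unadjusted p under 0.05 and edgeR and DESeq2 also called 0). The log2 differences of the 8 lay between -0.17 and 0.17 in both. Pax8 was lower in each RC/+ D53 library than in each RC/+ library, as 1 of 8, where the ranges of 8.84% of all genes stood apart. Their 95% intervals were widest for Esrrb, from -0.81 to 0.49 in RC/+ D53.

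Ordered over the 6 groups, Hnf4a, Lhx1, Esrrb and Esrrg had their lowest mean in RC/-, as did Tfap2b, and Pax2, Pax8 and Emx2 their highest. For Hnf4a the order ran from RC/+ D18 (555 ± 57.8 CPM) over RC/+ (493 ± 5.63), RC/- D18 (489 ± 67.3), RC/+ D53 (485 ± 43.7) and RC/- D53 (416 ± 39.1) to RC/- (215 ± 43.4). The last step was the only one larger than the SDs of its neighbours added together. For Emx2 it ran from RC/- (73.2 ± 8.68 CPM) over RC/- D53 (56 ± 3.57) and RC/- D18 (47.1 ± 4.87) to the RC/+ groups at 40.7 ± 1.26, 40 ± 2.15 (D53) and 37.4 ± 4.4 CPM (D18). Each step down to RC/+ was larger than the SDs of its neighbours added together, while the controls did not differ beyond their spread. Esrrg lay at 80.8 to 89 CPM in the mean of every group but RC/-, where it was 59.7 ± 2.36 CPM.

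Related genes were read from lists of other factors and of genes that act with them. Their counts stand beside the shares over all genes in RC/- against RC/+, 25.5% higher and 12.2% lower. Of 4 other proximal factors 3 fell in RC/- against RC/+, and the median of the list was -0.89. These were Ppara (-1.34), a receptor for fatty acids, Nr1h4 (-0.95), the bile acid receptor, and Maf (-0.84), whereas the close relative Hnf4g did not pass (-0.48, adjusted p = 0.136). Of 14 factors of the loop, distal tubule and collecting duct, 8 rose and 5 fell (median 0.79). Tfap2a, a relative of Tfap2b, rose by 2.20 and Gata3, a factor of the ureteric lineage, by 2.02. The lowest were Emx1 (-1.32), the relative of Emx2, and Hmx2 (-0.77). Side by side, Tfap2b was at -0.21 where Tfap2a was at 2.20, and Emx2 was at 0.84 where Emx1 was at -1.32.

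Of 16 further factors of kidney development, 3 rose, led by Sox11 (1.41) and Sox9 (1.28), which is re-expressed in injured tubules, and 4 fell, led by Cited1 (-1.29) and Osr2 (-0.96). The median of this list was 0.09. Of 12 tested genes of ureteric bud growth and nephron induction, Wnt4 (1.08), Etv4 (0.97) and Notch2 (0.72) rose and 0 fell, but this count moved between 2 and 6 when single libraries were left out and is uncertain. With TMM factors Gdnf and Bmp7 also passed, both lower. Of all genes tested 25.5% rose and 12.2% fell. The 3 higher of 16 development factors and 3 higher of 12 induction genes thus did not exceed the share of all genes. Of 9 partners and targets of the estrogen-related receptors 7 fell and 0 rose (median -0.51). Acadm (-0.90), an enzyme of fatty acid oxidation, and Ppargc1a (-0.77), the coactivator of the receptors, fell most, and Esrra (-0.42) and Idh3a (-0.51) least among those that passed.

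In RC/- D18 against RC/-, 3 of 4 proximal factors rose, 7 of 9 estrogen-related receptor genes rose and 1 fell, and of the loop, distal and collecting duct factors 5 rose and 7 fell. In RC/- D53 against RC/- the corresponding counts were 3 of 4, 7 of 9 with 0 lower, and 5 and 6. Development factors went both ways, 5 higher and 4 lower of 16 in RC/- D18 and 6 and 3 in RC/- D53. Induction genes were 0 higher and 6 lower of 12 in RC/- D18 and 2 and 3 in RC/- D53. Among all genes, 14.3% were higher and 26.9% lower in RC/- D18 against RC/-, and 11.3% and 18.9% in RC/- D53 against RC/-. Between cystic and control genotype, 0.266% of all genes passed within the D18 line and 2.6% within the D53 line. Within the D18 line 2 of the 14 loop, distal and collecting duct factors were higher and 0 lower, and no gene of the proximal, development, induction or estrogen-related receptor lists passed. Within the D53 line, RC/- D53 against RC/+ D53, 8 of the 14 loop, distal and collecting duct factors were higher and 1 lower, 0 of 4 proximal factors, 0 of 16 development factors and 0 of 9 estrogen-related receptor genes passed, and 1 of 12 induction genes was higher.

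**Figure D3:**
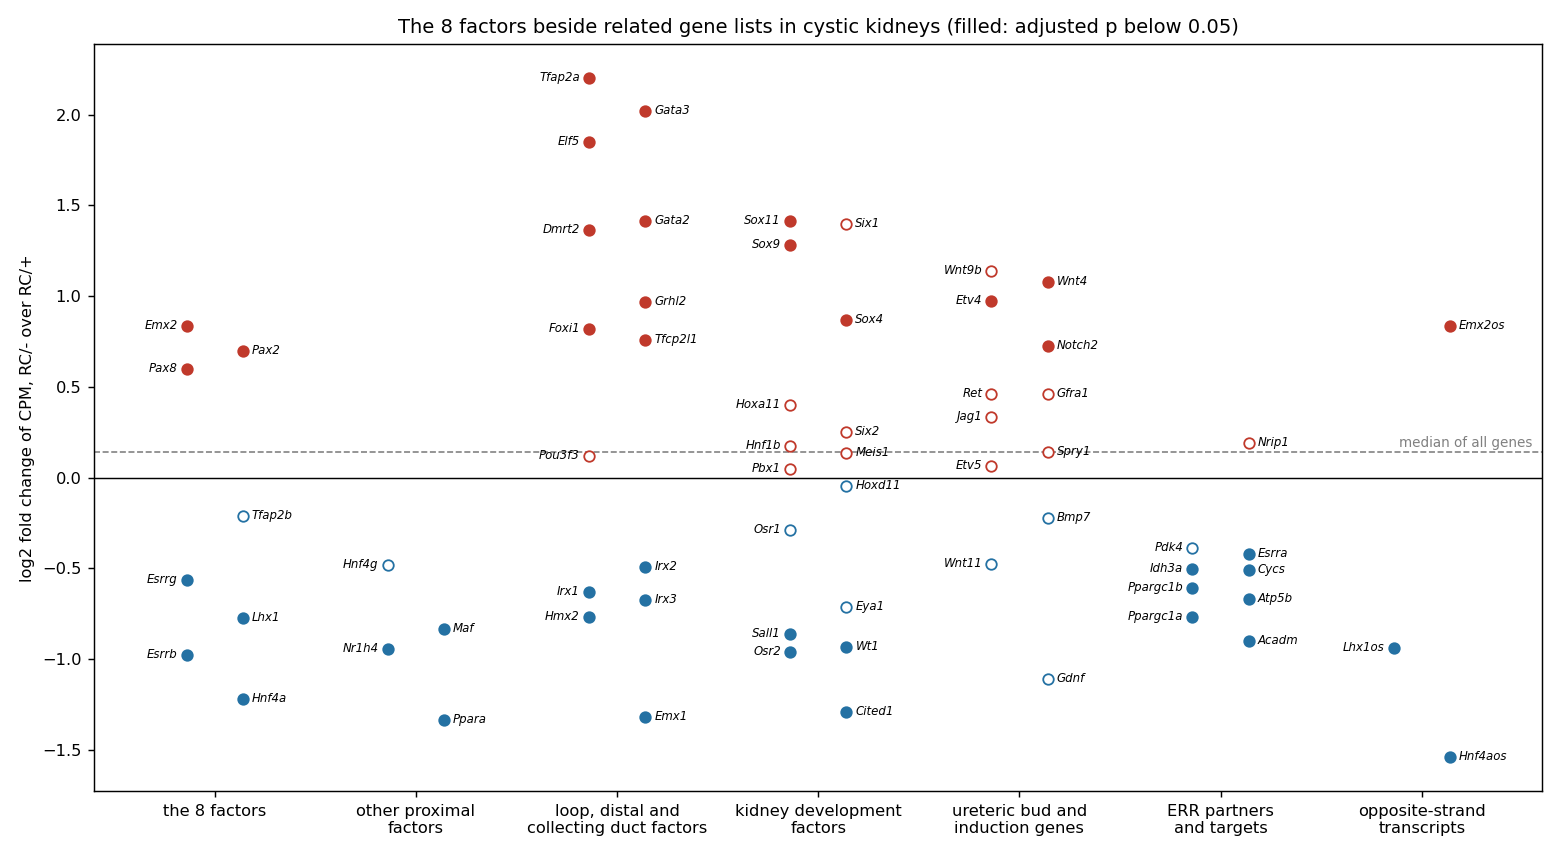
Log2 fold change between RC/- and RC/+ of the 8 factors and of each gene in 6 related lists, filled where the gene passed the test, with the median of all genes (0.14) as a dashed line. Proximal factors and estrogen-related receptor (ERR) genes that passed lie below 0, while loop, distal and collecting duct factors lie on both sides.

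Segment markers gave a scale for the factors, chosen after the values were seen and given without a test. The log2 ratio of Hnf4a to the summed proximal markers was -5.07 ± 0.04 (SD, n = 3) in RC/+ and -4.78 ± 0.22 (n = 5) in RC/-. The ranges of these groups did not overlap, but RC/+ D18, at -5.10 to -4.83, overlapped with RC/-, at -4.98 to -4.41. A sum weights abundant markers most, and taken singly Slc22a6 (-1.11), Slc27a2 (-1.13), Cubn (-1.13) and Aqp1 (-1.16) fell by less on the log2 scale than Hnf4a and the other 11 by more. The ratio of Tfap2b to the distal convoluted and connecting tubule markers was -3.64 ± 0.22 in the RC/- kidneys and -5.22 ± 0.17 in RC/+, with RC/- D18 at -5 ± 0.19 and RC/- D53 at -4.71 ± 0.19. The sum of those markers was thus low in RC/- while Tfap2b was not lower by the test. Taken singly, Slc12a3, Pvalb, Calb1 and Klk1 fell by between -1.76 and -2.18. Trpm6 (-0.586) and Slc8a1 (-0.615) fell by little more than the lower bound for Tfap2b (-0.54), and Trpv5 rose (0.867). The ratio of Emx2 to the principal cell markers went the other way, from -4.95 ± 0.15 in RC/+ to -5.61 ± 0.49 in RC/-, with overlap, and that of Pax2 to the same markers from -4.41 ± 0.23 to -5.21 ± 0.73, also with overlap. Relative to the thick ascending limb markers, Esrrb stood at -6.19 ± 0.39 in RC/+ and -6.28 ± 0.41 in RC/-, a difference smaller than either SD, and Esrrg at -5.79 ± 0.05 and -5.47 ± 0.38, with overlap. Pax2 relative to Hnf4a stood at -1.14 ± 0.25 in the RC/- kidneys and -3.06 ± 0.15 in RC/+, with RC/- D18 at -2.79 ± 0.25 and RC/- D53 at -2.46 ± 0.34, and RC/- overlapped with no other group.

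**Figure D4:**
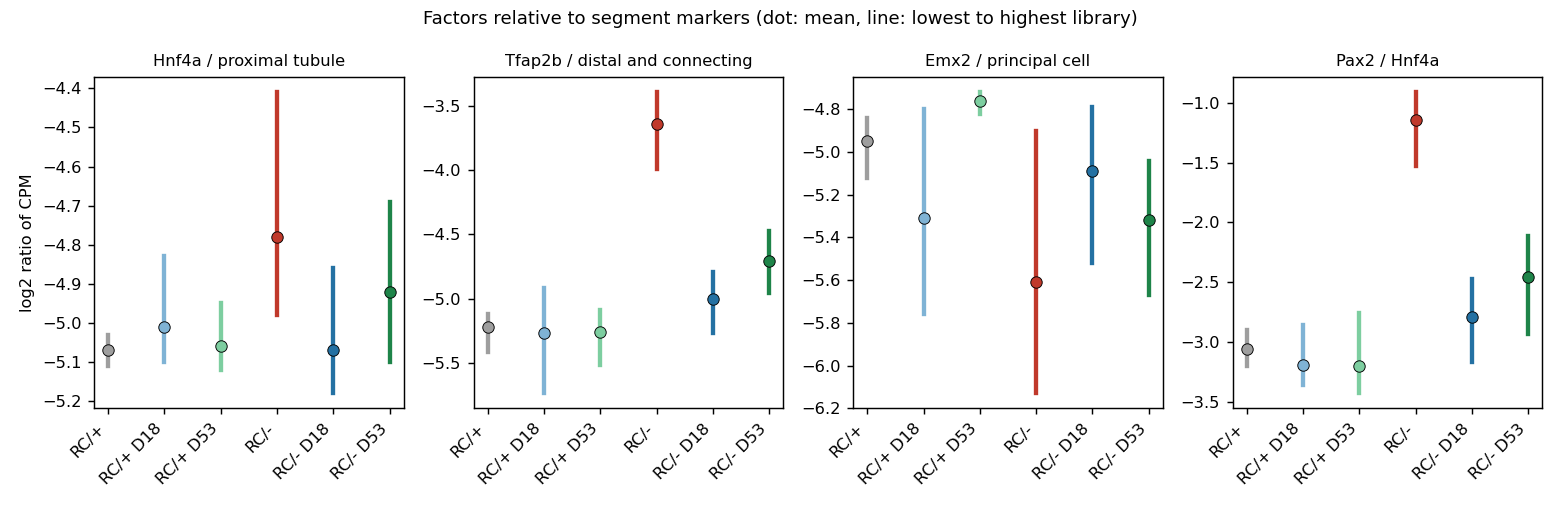
Log2 ratio of CPM of Hnf4a, Tfap2b and Emx2 to the summed markers of a tubule segment, and of Pax2 to Hnf4a, by group (dot, mean; line, lowest to highest library). RC/- has the highest mean for Hnf4a, Tfap2b and Pax2 over Hnf4a, and the lowest for Emx2.

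The genes whose log2 CPM followed a factor most closely over the 24 libraries were sought among 15073 genes, and r is given as a description. The libraries share the split between RC/- and the rest, so r after subtraction of group means is given beside it. Hnf4a was followed by Abat, Cyp2j5 and Lrrc19, each with r = 0.985 (0.91, 0.908 and 0.929 within groups). Emx2 was followed by Map3k1 (0.959, 0.755 within groups) and Enc1 (0.958, 0.599). For Esrrb these were Nccrp1 (0.933), Tmem207 (0.933) and Cobll1 (0.92), and for Esrrg Gclm (0.932), Sgms2 (0.917) and Gpr137b-ps (0.913), with 0.866 to 0.895 within groups for the first receptor and 0.384 to 0.601 for the second. Pax8 was followed by Cacnb3 (0.928, 0.754 within groups), Muc1 (0.908, 0.632) and Cnksr1 (0.902, 0.519), and Pax2 by Elmsan1 (0.898, 0.811), Cdon (0.891, 0.795) and Ampd3 (0.879, 0.754). Lhx1 was followed by Inmt (0.901, 0.782 within groups), Gm45792 (0.878, 0.647) and Dnajc13 (0.872, 0.691), and Tfap2b by B930095G15Rik (0.864, 0.891), Id4 (0.846, 0.838) and Usf3 (0.831, 0.798). Among the factors themselves, Pax2 and Pax8 rose and fell together from mouse to mouse (r = 0.89, and 0.81 within groups), while Esrrb and Esrrg had r = 0.63 over all libraries and -0.04 within groups.

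At the loci, the annotation places other transcripts on the opposite strand. Exons of Emx2os covered 8.794% of the exon bases of Emx2, and those of Gm13415 covered 6.055% of Pax8, while the other 6 factors shared none. Which strand was counted is not stated, so reads of such pairs cannot be told apart. Emx2os had 131 to 313 counts per library, against 790 to 1971 for Emx2, and Gm13415 had 3 to 18. Emx2os rose with Emx2 in RC/- against RC/+ (log2 fold change 0.84, adjusted p = 1.45e-05). Lhx1os (-0.94, adjusted p = 0.000218) and Hnf4aos (-1.54, adjusted p = 6.23e-06), which share no exon with their partners, fell as Lhx1 and Hnf4a did. In the 15 promoter windows of the 8 factors, each from 250 bases before to 50 bases after a start (RefSeq, GRCm38.p6), the estrogen-related receptor motif TCAAGGTCA and the Hnf4 motif CAAAGTCCA were found 0 times on either strand. Among 32851 windows of all genes they were found in 0.423% and 0.475%, so 0 in 15 says little.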

How the data were processed

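RNA was sequenced from 24 whole kidneys in 6 groups. Per the labels and methods, the authors trimmed reads with Trim Galore 0.6.3 (submitters' processing notes), aligned them to GRCm38 with STAR 2.5.3a and deposited raw gene counts against Ensembl release 94. Whether a strand was selected is not given in the sources used here. All count columns were used (0 left out). Replicate pairs within groups (39) differed by more than sampling noise (chi-square per degree of freedom 8.45 to 48.2), so each library counted once.

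Counts were converted to log2 CPM on library totals (prior count 2), and those 22570 genes whose average over the libraries reached -3 were fitted in 1 model of 6 group means with limma-trend (limma 3.58.1, R 4.3.3), two-sided, with Benjamini-Hochberg adjustment over all genes and a threshold of 0.05. CPM in the text carry no prior count. Confidence intervals are 95%. The procedure was tested on simulated data. Gene positions and exon lengths came from GENCODE M21 (54409 of 54532 identifiers matched), and sequences from RefSeq and GRCm38. For 343 genes no symbol was found, and 19345 genes were at 0 throughout.

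Alternatives were TMM factors and edgeR 4.0.16, DESeq2 1.42.0 with its size factors, other filters and prior count, sex or the 8 muscle-marker libraries as a covariate, fits of the compared groups alone, and fits without single libraries or without RC/- D18 replicates 20 to 22. Sex was assigned from the levels of Ddx3y and Xist in each library. Named were the 8 factors in the comparisons and, from each list, the genes called in RC/- against RC/+ with the 2 highest and 2 lowest log2 fold changes (lists of up to 5 genes in full). For likeness, the 3 genes of highest Pearson r are named per factor. A gene of the proximal list and a gene like Emx2 are not reported here. The factors, lists and alternatives were chosen with earlier results of these data known. No factor had fewer than 274 reads in any library.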

Additional observations from a re-analysis of the deposited data

Results flagged for a closer look

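Among 24 sets of 5 libraries (the 8 factors in the 3 RC/- groups), 2 had a library far from the others by Dixon's criterion, which chance meets in about 1 in 20 groups. Both were in RC/- D53 replicate 27, where Hnf4a was at 347 CPM beside 425 to 443 CPM in the other 4, and Esrrb at 42.1 CPM beside 67.5 to 71.9 CPM.

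The change between cystic and control genotype differed from that of RC/- against RC/+, by the interaction test, in D18 for Hnf4a (difference of 1.03 on the log2 scale), Emx2 (-0.5) and Esrrg (0.71), and in D53 for Hnf4a (1) and Esrrg (0.49). All 5 differences rest on the same RC/- and RC/+ libraries, so they are not independent of each other. With the muscle-marker libraries as a covariate, the 2 in D53 did not pass, at 0.67 (Hnf4a) and 0.50 (Esrrg). Emx2 in D18 did not pass in that fit either (-0.42, adjusted p = 0.084).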

How the results depend on the processing

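The 7 calls in RC/- against RC/+ held in each setting that could be fitted and without any single library, and Tfap2b passed in none. With the muscle-marker libraries as a covariate, 2 factors in place of 7 passed in RC/- D53 against RC/-, and 0 in place of 2 in the D53 interaction. In the D18 interaction Emx2 was then -0.42 and did not pass (adjusted p = 0.084). For D53, the log2 changes with the covariate were as large or larger for Esrrb (1.06), Pax8 (-0.50), Lhx1 (0.65), Tfap2b (0.50) and the Esrrg interaction (0.50). They were smaller for Emx2 (-0.24), Hnf4a (0.645) and the Hnf4a interaction (0.67). Nephron induction genes called went from 3 to 5 with TMM factors, DESeq2 size factors, the filter at 0 or the compared groups alone, and ranged from 2 (without RC/+ replicate 4) to 6 (without RC/- replicate 15). Without single libraries, factors called ranged from 1 to 2 within the D53 line and from 2 to 4 in the D53 interaction (4 without RC/- D53 replicate 27). Lhx1 passed in the D53 interaction with TMM factors (adjusted p = 0.0481), edgeR (0.0442) and DESeq2 (0.0201). Differences that did not pass changed sign as follows. Esrrb within D18 was -0.011 with edgeR and DESeq2, Lhx1 within D53 was 0.002 and Tfap2b between D53 and D18 was 0.041 with the covariate, and Pax8 in RC/+ D18 was 0.012 with TMM or size factors and 0.014 with edgeR or DESeq2. Without single libraries, the D18 line gave Tfap2b -0.052 to 0.17 and Esrrb -0.176 to 0.212, and the D53 line gave Lhx1 -0.135 to 0.071 and Esrrb -0.022 to 0.207. Between D53 and D18 the ranges were -0.098 to 0.005 (Pax8), -0.074 to 0.059 (Tfap2b) and -0.162 to 0.054 (Esrrb). In RC/+ D18 they were -0.033 to 0.108 (Pax2), -0.09 to 0.048 (Pax8), -0.043 to 0.213 (Tfap2b) and -0.262 to 0.173 (Esrrb). In RC/+ D53 they were -0.093 to 0.036 (Hnf4a), -0.454 to 0.01 (Pax2), -0.278 to 0.116 (Lhx1) and -0.128 to 0.09 (Tfap2b). For Pax2 in the D53 interaction the range was -0.361 to 0.102. Over all genes, calls within D18 moved from 60 to between 2 (without RC/- D18 replicates 20 to 22) and 140 (DESeq2), within D53 from 587 to 287 (covariate), and between D53 and D18 from 60 to 273 (DESeq2). Single libraries moved these counts to between 14 and 27 within D18 (without RC/+ D18 replicates 7 or 8 or RC/- D18 replicate 21), between 312 and 381 within D53 (without RC/+ D53 replicates 10, 11 or 12), between 19 and 39 from D53 to D18 (without RC/- D18 replicates 19 or 22 or RC/- D53 replicates 25 or 27) and to 1643 in the D53 interaction (without RC/+ replicate 5). With the covariate they moved from 6805 to 1796 for RC/- D53 against RC/-, from 3858 to 2337 in the D18 interaction and from 2545 to 403 in the D53 interaction. Without RC/- D18 replicates 20 to 22, calls for RC/- D18 against RC/- moved from 9305 to 6120. The share of calls that were higher moved from 34.8% to 50.2% with TMM factors for RC/- D18 against RC/-, from 37.4% to 53.2% for RC/- D53 against RC/-, from 36.9% to 51.5% in the D18 interaction and from 41.9% to 60.2% in the D53 interaction. The causes were not tested. No paired analysis was made, because no litter is given and the replicate numbers only count the libraries.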
